A study of Drosophila melanogaster with 2 samples.

Results

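HmgD and HmgZ are neighbouring genes of Drosophila melanogaster that overlap on opposite strands of chromosome arm 2R and encode small HMG-box chromosomal proteins. They were chosen by the signal of 1 chromatin peak of the SUMO ligase Su(var)2-10, among the strongest in these lists, which lies in introns of both genes. All peak summits in the gene bodies and 5 kb around them were taken, in dm6 coordinates from 2R 21692488 to 21721727. The genes are 2 of 13945 protein-coding genes outside Y. Their window held 5 of the 2942 peaks in the authors' list thresholded by irreproducible discovery rate (IDR), called reproducible peaks from here on. Each summit is a separate entry in these lists and is counted as such, and 2 of the 5 share 1 interval. It held 22 of 30000 candidate peaks of the pooled replicates, 16 of 30000 in replicate 2 and 20 of 30000 in replicate 3, lists that take in background regions by design. So 22.7% of the pooled candidates in the window passed, where 9.81% of all pooled candidates did. The summits that share an interval belong to the peak the genes were chosen for, so the choice itself raised this share.

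The values came from chromatin immunoprecipitation and sequencing with an anti-GFP antibody in 1 group of 2 biological replicates, labelled 2 and 3. Both were whole embryos of mixed sex, 0 to 24 h old, from a transgenic Suvar2-10-GFP line in which Su(var)2-10 carries GFP at its C-terminus. No second genotype, stage or untagged line was compared here, and whole embryos mix all tissues and the stages of that span. No promoter for the tagged gene was named in the labels, and read depth is unknown since the lists hold peaks and not reads. Signal here is a unitless score that the authors gave each peak. It is compared within a list only, and ranks run from the strongest peak down. Because these genes were chosen for their signal, values at the locus are descriptions, and no test was made on them.

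HMG-box proteins of this family bind the minor groove of DNA with little sequence preference and bend it sharply. HmgD and HmgZ are the fly relatives of the vertebrate HMGB proteins. HmgD is known as an abundant component of early embryonic chromatin, before somatic linker histone accumulates. Su(var)2-10 belongs to the PIAS family, whose members direct attachment of the modifier SUMO to other proteins, many of them on chromatin.

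HmgD (FBgn0004362) runs on the plus strand from 2R 21701458 to 21716727, and HmgZ (FBgn0010228) on the minus strand from 2R 21697488 to 21707861. They share 6404 bp, so that each gene begins inside the other. Each gene has 4 annotated transcripts from 3 start sites. All 4 HmgD transcripts encode 112 residues from a coding region between 21715468 and 21715877, and all 4 HmgZ transcripts encode 111 residues from a coding region between 21698125 and 21698540. The transcripts of a gene therefore encode proteins of 1 length and differ in their start sites, 3′ ends and first introns. The first intron spans 13341 bp in the long transcript HmgD-RD, against 1239 to 2018 bp in the other HmgD transcripts. In HmgZ it spans 9024 bp in HmgZ-RD, 5722 bp in HmgZ-RB and 4076 and 4072 bp in HmgZ-RA and HmgZ-RC.

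**Figure D1:**
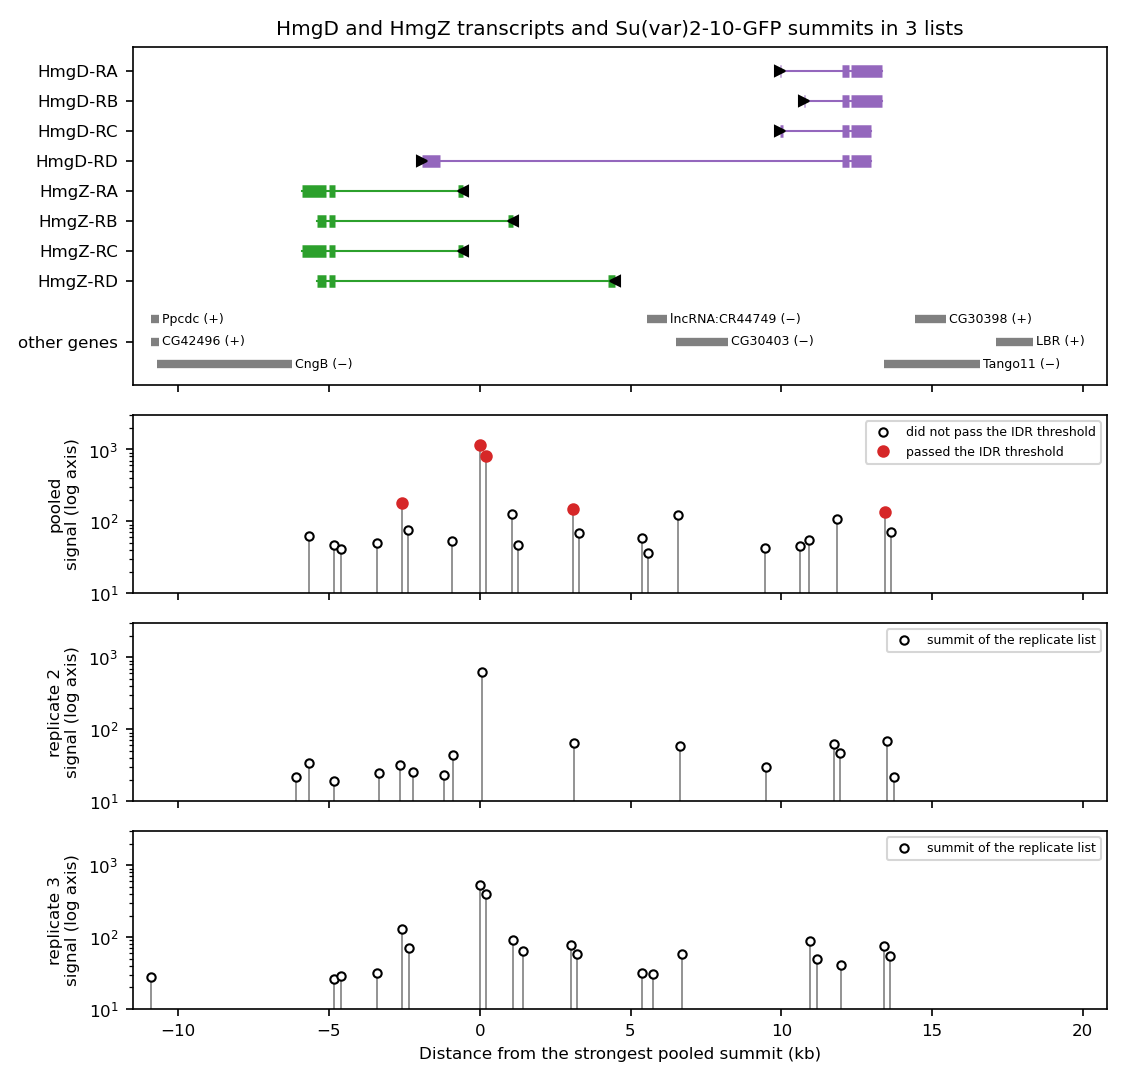
Transcripts of HmgD (purple) and HmgZ (green), with thick exons and arrowheads at start sites, other genes (grey), and summits of the pooled list and of both replicate lists. The horizontal axis is the distance from the strongest pooled summit in kb and the vertical axes give signal on a log scale. In all 3 lists the highest summits lie at the centre, in introns of both genes and away from the coding exons at either end.

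A reproducible peak with 2 summits lay in the shared introns, from 2R 21703202 to 21703694. Its higher summit, at 21703387, had a pooled signal of 1161 and ranked 8th of 2942 reproducible peaks. The lower summit, at 21703586, had a pooled signal of 810 and ranked 49th. Their signals were 5.95 and 4.16 times the median of the reproducible peaks, and the highest of all was 2409. Both had a q-value of 0.000399, the lowest of the pooled list, which 1254 peaks shared. Both summits lay in the first introns of HmgD-RD, HmgZ-RB and HmgZ-RD, and upstream of the start site shared by HmgZ-RA and HmgZ-RC, by 557 bp for the higher summit and 756 bp for the lower. Which of the overlapping genes such a summit belongs to cannot be told apart from these lists.

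Both replicates placed this peak near the top of their lists, but drew it differently. Replicate 2 had 1 summit, at 21703467, with a signal of 634 and rank 6. Replicate 3 had 2 summits at exactly the pooled positions, with signals of 538 and 400 and ranks 9 and 37. The replicate 2 summit lay between those of replicate 3, 80 bp from the higher and 119 bp from the lower, so within the 100 bp used to match summits only the higher one counted as found in both replicates. Relative to the median of the best 2942 peaks of its own list, the strongest summit was at 6.69 times in replicate 2 and 5.23 times in replicate 3. The peak spanned 435 bp in replicate 2 and 275 and 281 bp for the summits of replicate 3, where 99.4% and 99.6% of all peaks had the usual width of 510 and 536 bp. In the pooled list it spanned 493 bp, where 99% of pooled peaks and 89.9% of reproducible ones had the usual 536 bp. A width other than the usual one was shared by the 6 peaks nearest to it in signal away from start sites, which spanned 327 to 812 bp, and 5 of those 6 were narrower than this peak.

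The distance between both pooled summits, 199 bp, was the smallest that occurred anywhere. No list held neighbouring summits closer than 199 bp, and gaps of 199 to 209 bp made up 2257 of 29993 pooled gaps (7.53%), against 281 for gaps of 249 to 259 bp. In the HmgD and HmgZ window 6 of the pooled gaps fell between 199 and 209 bp, with 1 in replicate 2 and 2 in replicate 3. Whether the 2 summits mark separate sites or 1 wider one cannot be told apart from these lists. Between neighbouring reproducible summits, 303 of 2936 gaps (10.3%) were 199 to 209 bp, most of them between separate intervals. Among the 2934 distinct reproducible intervals, 8 carried more than 1 summit, and this one had the second highest signal of those 8. Its lower summit reached 69.8% of the higher, where the median of the 8 intervals was 33.6%.

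**Figure D2:**
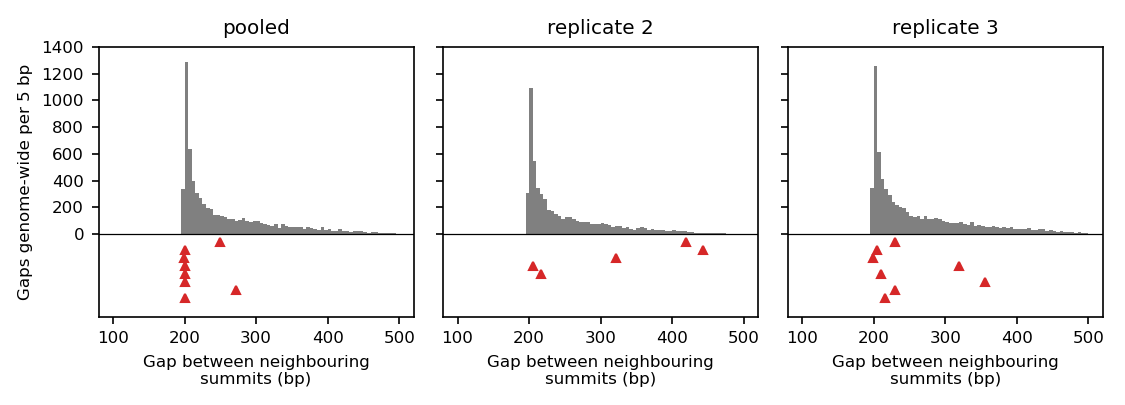
Gaps between neighbouring summits of up to 500 bp over the whole genome (grey, counted per 5 bp) in the pooled list and both replicate lists. Red triangles give the gaps in the HmgD and HmgZ window, and their height only separates them. The histograms start at 199 bp and are highest just above it, where 6 pooled gaps of the window sit.

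The other reproducible summits of the window were far weaker. One lay at 21700818, in the first intron of every HmgZ transcript and 640 bp upstream of the start of HmgD-RD, with a pooled signal of 180 (rank 1666). Another lay at 21706475, in introns of HmgD-RD and HmgZ-RD, with a pooled signal of 147 (rank 2375). The last lay at 21716813, just beyond the 3′ end of HmgD in the 3′ UTR of Tango11, with a pooled signal of 133 (rank 2769). Their q-values were 0.000901, 0.0103 and 0.0204. The weakest of these was 173 places inside the 2942 that passed. Thus 4 of the 5 reproducible summits of the window were intronic and 0 at a promoter, meaning within 250 bp of an annotated start. Both summits of the peak the genes were chosen for are among these 4, so the choice itself raised the intronic count. Over the genome 41.3% of all reproducible peaks were intronic and 37% at promoters.

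Of these weaker summits 1 stood at very different ranks in the replicates. The summit upstream of HmgD-RD had a signal of 32.0 and rank 10474 in replicate 2, against 129 and rank 922 in replicate 3. Its place among the reproducible peaks thus came with a high rank in replicate 3 and a low one in replicate 2. At the summit in the introns of HmgD-RD and HmgZ-RD the ranks were close, 2884 in replicate 2 and 2458 in replicate 3, and likewise at the 3′ end of Tango11, 2640 and 2748, although the replicate 3 summit there lay just outside the annotated gene. All 5 reproducible summits had a replicate 3 summit within 100 bp, and 4 had one in replicate 2. Taking only the best 2942 peaks of each replicate list, the window had 3 in replicate 2 and 7 in replicate 3. The additional ones in replicate 3 were at the start of HmgZ-RB (signal 91.6, rank 1870), near the start of HmgD-RB (signal 89.1, rank 1968), upstream of HmgD-RD, and the second summit of the strong peak.

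**Figure D3:**
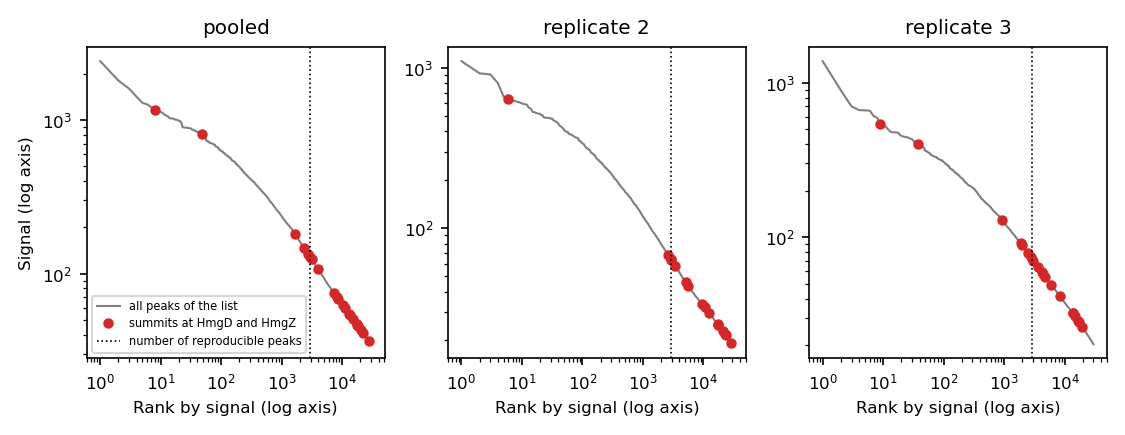
Signal against rank, both on log axes, for all peaks of the pooled list and of each replicate list (grey), with the summits at HmgD and HmgZ in red. The dotted line marks rank 2942, the number of reproducible peaks. One summit in replicate 2, and a pair in each of the other lists, stand near the top, and the remaining summits begin at rank 1666 (pooled), 2640 (replicate 2) and 922 (replicate 3).

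Of the 22 pooled summits 4 were at a promoter, where 14% of all pooled candidates were. HmgD and HmgZ both lacked a reproducible summit within 500 bp of any of their 6 start sites, as did most genes: 12.1% of protein-coding genes had one (9.1% within 250 bp). The summit nearest to passing was at HmgZ-RB, where a pooled summit 30 bp downstream of the start had a signal of 128 and rank 2977, 35 places outside the reproducible set. In replicate 3 that summit lay 4 bp from the start at rank 1870, inside the best 2942 of its list, and replicate 2 had none nearer than 1034 bp. At HmgD-RB pooled summits lay 114 bp upstream and 158 bp downstream, at ranks 18536 and 13099, and the nearest summit was within 250 bp in replicate 3, at rank 1968 and so also inside the best 2942, and 993 bp away in replicate 2. The start of HmgZ-RA and HmgZ-RC had no summit within 250 bp in any list. The same was true of HmgD-RD, of HmgZ-RD, and of the start shared by HmgD-RA and HmgD-RC. Around HmgZ-RD no summit of any list came within 500 bp, the pooled one being 897 bp upstream.

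**Figure D4:**
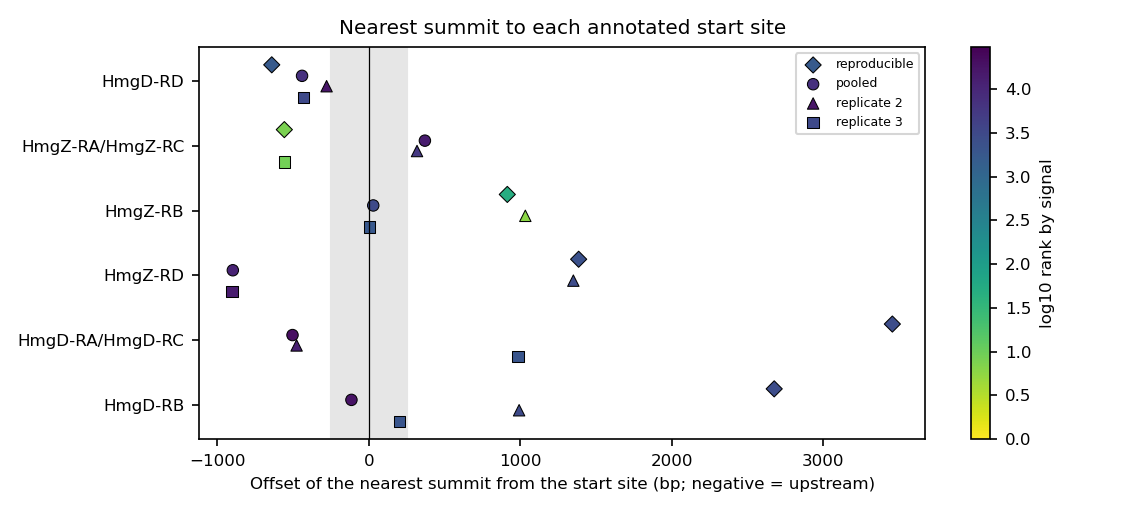
Offset of the nearest summit from each of the 6 start sites of HmgD and HmgZ in 4 lists, in bp, with negative values upstream. Colour gives the log10 rank by signal, and the grey band covers 250 bp to each side. In the band lie only pooled and replicate 3 summits, at HmgZ-RB and HmgD-RB.

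The remaining 17 pooled summits of the window did not pass. Their signals ran down to 36.1, at rank 28033, and after HmgZ-RB the strongest were in the 3′ UTR of CG30403, which lies inside the first intron of HmgD-RD (signal 124, rank 3127), and in the first intron of every HmgD transcript (21715249, signal 106, rank 4008). No pooled summit fell in the coding sequence of either gene. The nearest to it was at 21698544 in HmgZ, in the 5′ UTR beside the coding start, with a pooled signal of 46.5 at rank 17881, and both replicates had it within 1 bp at low signals of 19.3 in replicate 2 and 26.3 in replicate 3. In the long HmgD intron the nearest summits to that in CG30403 had 58.2 (rank 3420) in replicate 2 and 57.9 (rank 4395) in replicate 3, 68 and 133 bp from the pooled position. Those nearest to 21715249 had 46.2 (rank 5092) in replicate 2 and 41.6 (rank 8280) in replicate 3, 86 and 107 bp away. By the 100 bp rule both were thus matched in replicate 2 only, and the promoter summit at HmgZ-RB in replicate 3 only. Within 200 bp both had a summit in each replicate, while the nearest replicate 2 summit to that at HmgZ-RB was 1004 bp away. Several weak summits stood about 200 bp from a stronger one: at 21701018 the pooled signal was 75.3 beside 180, at 21706676 it was 68.7 beside 147, and at 21717014 it was 70.5 beside 133. Of the 17, 2 had a summit within 100 bp in both replicates, 5 in replicate 2 only, 7 in replicate 3 only and 3 in neither. Candidate summits were dense along the locus. HmgD held 14 pooled summits, or 0.917 per kb, and HmgZ 13, or 1.25 per kb, with those in the overlap counted for both. The median of the 964 protein-coding genes of 10 to 20 kb was 0.271 per kb, and 1.66% and 0.311% of these genes were as dense as HmgD and HmgZ. Both summits of the strong peak, for which the genes were chosen, enter both densities. Close pairs add to them as well, with 6 pooled gaps of the window at 199 to 209 bp. These shares are therefore a description only.

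Counts of reproducible summits were also high against other genes. HmgD had 5 in its body or 5 kb around it, and 0.696% of protein-coding genes had at least as many. HmgZ had 4, and 1.81% had at least as many, where 33.1% of genes had at least 1. Within the body alone HmgZ had 4 (0.552% of genes) and HmgD 3 (1.16%), against 7.66% of genes with at least 1. Among genes of 10 to 20 kb, 24.3% had at least 1 in the body, 4.25% at least 3 and 1.45% at least 4. The summits in the overlap enter the counts of both genes. The strong peak alone adds 2 summits to each count. Only 8 of the 2934 distinct reproducible intervals carry more than 1. Close pairs in separate intervals were more common, since 10.3% of gaps between neighbouring reproducible summits were 199 to 209 bp. Both genes were also chosen for this peak, so these shares are a description only.

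The neighbouring genes held fewer summits, but all of them are shorter than HmgD and HmgZ. No count per kb was made for them, so these are counts only. Tango11, which follows HmgD tail to tail, held the reproducible 3′ UTR summit described above and 1 further pooled summit, at rank 8115. CngB, a cyclic nucleotide-gated channel subunit gene downstream of HmgZ, held no summit of any list, and a replicate 2 summit of rank 23346 lay at −143 bp from its start. Ppcdc and CG42496, which share their span, held 1 replicate 3 summit of rank 17159. CG30398, which lies within Tango11, had none. Inside the first intron of HmgD-RD, lncRNA:CR44749 held 1 pooled summit of rank 28033 and CG30403 that of rank 3127. The part of LBR, a lamin B receptor gene, that reaches into the window held none.

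Only 5 of the 2942 reproducible peaks lay both away from start sites and at or above the signal of this one, itself included. Among the 1402 reproducible peaks over 500 bp from any start the higher summit ranked 5th and the lower 19th, and among the 1214 intronic ones they ranked 4th and 17th. The 3 peaks just above it lay in an intron of ush, a Friend of GATA cofactor gene (signal 1801), in an intron of Trl, the GAGA factor gene (1598), and in an exon of lncRNA:Vinr (1413). Just below it came a peak in an intron of Kdm2, a histone demethylase gene (1139), and intergenic peaks at 2R 13035152 to 13035513 (1101) and X 2123879 to 2124205 (1057). The HmgD and HmgZ peak was nearest to a start site of these 7, at 557 bp, the others lying 654 to 11930 bp away. Its ranks in replicates 2 and 3 were 6 and 9, and close ranks were shared by ush (2 and 2), Trl (3 and 5), lncRNA:Vinr (4 and 3) and the intergenic peak on 2R (11 and 11). The ranks lay further apart at Kdm2 (33 and 4) and at the intergenic peak on X (8 and 21). At the peak on X the nearest replicate 3 summit was 127 bp from the pooled one, outside the 100 bp used to match summits. Of these 7, the HmgD and HmgZ peak and the peak in lncRNA:Vinr were the 2 with more than 1 summit in their interval. Likeness here means pooled signal and distance from starts over 2 replicates, and nothing more.

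Lying in introns of overlapping genes was uncommon. Of the 2942 reproducible summits, 82 (2.79%) fell in introns of at least 2 protein-coding genes, 32 of them with genes on both strands. The 2 summits of the strong HmgD and HmgZ peak had the highest and second highest signal of the 82, whose median was 183, and the summit at 21706475 was also among them. The strongest elsewhere lay in introns of Hr3, an ecdysone-responsive nuclear receptor gene, together with CG12912 and CG46321 (signal 782, rank 53, with ranks 53 and 41 in replicates 2 and 3). The next were at Hyls1 and chif (698, rank 73) and at bbx and waw (641, rank 93). Of these genes bbx encodes an HMG-box protein too, and its summit lay 192 bp from a start, where that at HmgD and HmgZ lay 557 bp from one.

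In 200 bp around the summit G and C made up 37.5% at the higher and 46% at the lower summit, against a median of 33.5% over the 2942 reproducible peaks (quartiles 29 and 38.5). Those values were above 69.7% and 92.6% of reproducible peaks. Over the 27058 pooled candidates that did not pass the median was 38.5% (quartiles 33 and 45), so the higher summit lay just below that median and the lower summit above the upper quartile. The summit upstream of HmgD-RD had 48%, that at 21706475 had 33.5% and that in the Tango11 3′ UTR 29.5%. Exact matches on both strands were sought for 9 motifs: GAGAG of GAGA factor, CGATA of BEAF-32, CAGGTAG of Zelda, CACGTG of the E-box, TGACTCA of AP-1, CACACA, and the consensus motifs of DREF, M1BP and STAT. DREF's motif holds CGATA within it. None matched around the higher summit in windows of 100, 200 or 400 bp. The lower summit had 1 GAGAG match, 83 bp away on the minus strand. A GAGAG match was present in 23.1% of all reproducible peaks and 21.3% of pooled candidates that did not pass, and a CGATA match in 24.6% and 22.7%. The share of reproducible peaks with a match was 14.8% for CACACA, 5.23% for STAT and between 0.578% and 2.07% for the other 5. The absence of a match says only that these letters are not in these windows.

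Other genes of HMG-box proteins were set beside the pair, 21 in all with HmgD and HmgZ. A reproducible summit within 500 bp of a start was present at 6 of the 21 (28.6%), where all protein-coding genes had 12.1%. No test was made on this list, which was chosen with earlier results of these data known. The 6 were Sox14, a Sox transcription factor gene (signal 840, rank 39), bbx (641, rank 93), Hmg-2 (328, rank 526), cic, the gene of the repressor Capicua (264, rank 798), Sox102F (227, rank 1069) and Dsp1, which encodes an HMGB-type corepressor (130, rank 2908). Of these Dsp1 differed most between replicates, with rank 11987 in replicate 2 against 981 in replicate 3, while Sox14 had 57 and 27 and bbx 96 and 108. HmgD and HmgZ were not among the 6, although their intronic peak was the strongest of the list within 5 kb of a gene body. By that wider rule 13 of the 21 (61.9%) had a reproducible summit, where 33.1% of all protein-coding genes did. HmgD and HmgZ are among these 13, and the choice of both genes by this peak assured that, so the share is a description only.

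**Figure D5:**
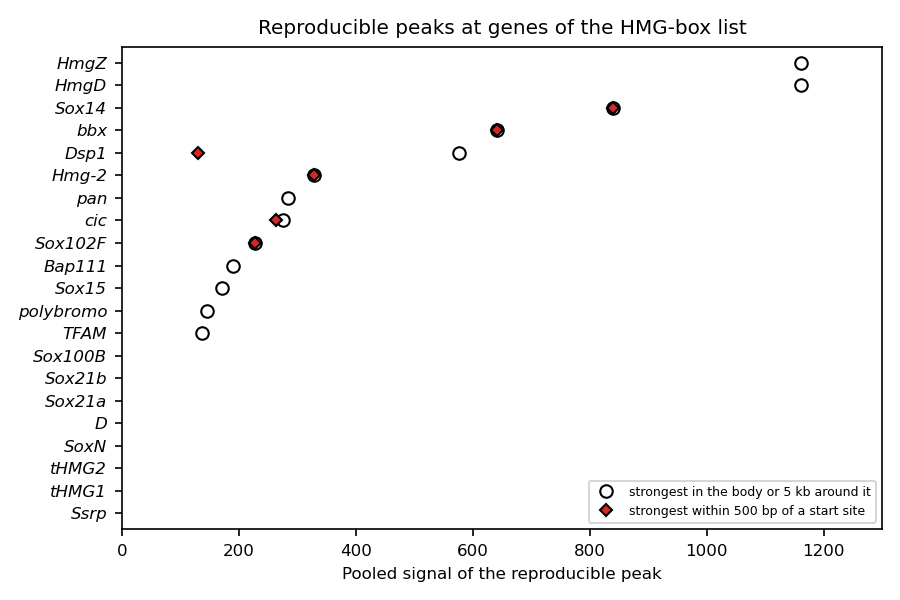
Pooled signal of the strongest reproducible peak in the body or 5 kb around it (open circles) and within 500 bp of a start site (red diamonds) for the 21 genes of the HMG-box list. Genes with no symbol have no such peak. HmgD and HmgZ share their circle at 1161 and have no diamond.

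Not all HMG-box genes of chromatin proteins had a summit near their starts. Ssrp, which encodes a subunit of the histone chaperone FACT, had its nearest reproducible summit 35873 bp from a start, and Bap111 and polybromo, subunits of SWI/SNF-type remodellers, 3120 and 4435 bp. Of a second list of 12 genes of chromatin architecture, among them D1, Dek, Nlp, Nph, BigH1, Nap1, Df31, dre4, Parp1, Iswi and Acf, 0 had a reproducible summit within 500 bp of a start, where 12.1% of all protein-coding genes did. With so few genes that count is near the background. In the body or 5 kb around it 1 of the 12 had a summit, where 33.1% of all protein-coding genes did. It was the gene of the heterochromatin protein HP1a, with 2 reproducible summits in that span. The stronger had a signal of 625 (rank 101), and the nearest reproducible summit lay 1895 bp from a start. Pooled candidates within 500 bp of a start were present at 10 of the 21 HMG-box genes, HmgD and HmgZ included, and at 4 of the 12 others, where 36.7% of all protein-coding genes had one.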

How the data were processed

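Per the file notes deposited with each sample, the authors called candidate peaks against a control file for each replicate and for the pooled replicates, and the IDR-thresholded list came from those lists. Steps not given in the sources used here include the aligner, the peak caller, and the version and cutoff of IDR. The deposited signal value is a score with no unit, and the deposited −log10 q gave q-values. The deposited summit offset, added to the peak start, gave the summit, and all positions are 1-based dm6. Peaks were ranked by signal within a list. The dm3 lists were not used.

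Genes and start sites came from Ensembl release 115 (BDGP6.54), and base composition and motifs from the RefSeq Release 6 sequence, which is dm6. No peak end exceeded a chromosome's length. A promoter summit lay within 250 bp of any annotated start. Any other summit took the first class that held it: 5′ UTR, then coding, then 3′ UTR, then intron, then other exon, and otherwise intergenic. Summits matched between lists within 100 bp. No statistical test was made, since the genes were chosen by their signal. Counting functions were tested on simulated data. Depth is unknown, and with 2 replicates in 1 group both values are given.

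HmgD, HmgZ and the gene lists were chosen with earlier results of these data known. Named besides them were all other genes in the window, members of the HMG-box list with a reproducible summit within 500 bp of a start, 3 peaks to each side in rank among those over 500 bp from any start, and the 3 strongest others in introns of overlapping genes. Further members were named after their values were seen. A comparison of the protein sequences was not made. Alternatives covered window margins, the position that stands for a peak, matching distances, ranking by q, a stricter list, single replicates, promoter distances and motif windows. Python 3.11.15, numpy 2.4.6 and pandas 2.3.3 were used.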

Additional observations from a re-analysis of the deposited data

How the results depend on the processing

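The count of summits near HmgD and HmgZ stayed within 1.5 times in each of the 4 lists with margins of 2 or 10 kb, with peak midpoints and with any peak base in the window. The strongest peak ranked 8th in the pooled list and between 6th and 9th when either replicate was left out. Ordered by −log10 q it fell in a tie of 1254 peaks that starts at rank 1. Reproducible summits near the genes numbered 5, against 2 among the 1471 reproducible peaks with the higher signal, and 3 to 7 from the best peaks with one replicate left out, 3 without replicate 3 and 7 without replicate 2.

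Of the 22 pooled summits, 6 had a summit within 100 bp in both replicates, 1 within 50 bp, 12 within 200 bp and 13 by overlap of at least 50% of both peaks. Pooled promoter summits numbered 4 within 250 bp of a start, 1 within 100 bp and 7 within 500 bp, and reproducible ones 0 at each of these distances. The share of protein-coding genes with a reproducible summit was 33.1% with a margin of 5 kb, 22.6% with 2 kb, 45.9% with 10 kb and 7.66% with none. HMG-box genes with a reproducible summit numbered 6 within 500 bp of a start, 3 within 250 bp and 13 in the body and 5 kb around it, and chromatin-architecture genes 0 within 500 bp and 1 in that wider span. No paired analysis was possible because the samples form 1 group. The peak lists give no depth, so no limit of detection can be given for a summit missing from 1 replicate.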
